A study of Mus musculus with 9 samples.

Results

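The genes described here are 39 genes of DNA replication and of the passage from G1 into S phase, chosen by symbol from a count table of 24532 mouse genes. They comprise 11 genes of origin licensing, 5 of helicase activation, 7 of the replicative polymerases and primase, 7 of the sliding clamp, its loader and replication protein A (RPA), 2 of Okazaki fragment maturation, 4 of nucleotide supply and 3 of G1/S control. Histone genes were left out of the selection. All 39 were in the table and all 39 passed the filter on low counts, among 14507 genes tested.

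Before a cell copies its DNA, the origin recognition complex, Cdc6 and Cdt1 load the Mcm2 to Mcm7 ring onto origins, and geminin (Gmnn) blocks further loading once S phase has begun. Cdc45 and the GINS complex turn the ring into an active helicase, and DNA polymerases alpha, delta and epsilon copy the strands behind it with the clamp PCNA. Many of these genes are known targets of E2F transcription factors, which cyclin-dependent kinases release from the retinoblastoma proteins late in G1. In the epidermis, division takes place mainly in the basal layer, and cells leave the cycle as they move up and differentiate.

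RNA was sequenced from skin cells of C57BL/6 mice at postnatal days 1, 7 and 14, labelled as keratinocytes, with 3 libraries per day and no treatment or mutation named in the labels. The cells were sorted as viable and CD45.2-negative, a gate against leukocytes and dead cells that did not require a keratinocyte marker. The labels give neither the number of animals behind each library nor any pooling, so p-values rest on the differences among these 9 libraries alone and may reflect technical spread. The headers of all count columns begin with SPF, so this mark does not differ between the days. Headers of the day 1 columns read D0 and were taken as day 1 because the other days have headers of their own. Header numbers name the libraries: 4, 5 and 6 for day 1 and again for day 14, and 1, 2 and 3 for day 7.

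Total counts lay between 50670191 and 62970768 per library. The 10 keratinocyte markers summed to 55232 to 62396 CPM (counts scaled to library size) in the libraries of day 1, 65797 to 68019 CPM at day 7 and 53016 to 56469 CPM at day 14, with none at 0. Fibroblast markers (7 genes) summed to 122 to 225, 17.3 to 61.9 and 17.0 to 37.5 CPM at days 1, 7 and 14, melanocyte markers (6 genes) to 358 to 387, 101 to 122 and 4.04 to 8.62 CPM, and leukocyte markers (6 genes) to 1.43 to 2.54, 2.89 to 3.84 and 16.0 to 17.0 CPM. Endothelial markers (5 genes) stayed at or below 1.73 CPM in every library. Of the 6 leukocyte markers, 3 passed the filter on low counts, which a gene can pass through the libraries of a single day. Their count is therefore not read as a result. The 3 were Tyrobp, Cd74 and the Langerhans cell gene Cd207, with log2 fold changes from day 7 to day 14 of 2.82, 2.33 and 2.32. These values are given as description only. Cd74, the most abundant of them, was at 1.11, 1.4 and 2.26 CPM at day 1, 3.24, 2.48 and 2.75 CPM at day 7 and 14, 14.3 and 14.2 CPM at day 14. Ptprc, Cd3e and Lyz2 were too low to be tested and did not exceed 0.1997 CPM in any library, and Cd207 and Cd3e had 0 counts in all libraries of day 1. Transcripts that mark sex also differed between the days: Xist had 0 counts in all day 7 libraries, Ddx3y had 0 counts in all day 14 libraries, and the day 1 libraries held both. The part of these other cell types and of sex in the changes below was not tested. Sex and age cannot be told apart in any comparison between the days, since these transcripts differed between all of them.

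The replication genes were lower at day 14 than at day 7, and most of their decline fell in that second week. Their summed share of all counts was 0.289% ± 0.0148 at day 1, 0.251% ± 0.00783 at day 7 and 0.141% ± 0.00702 at day 14 (SD, n = 3 each). The lowest day 7 library, at 0.243%, was above the highest day 14 library, at 0.148%. Without the clamp gene Pcna, which had the highest level per kilobase of exon, the sum was 2464 ± 103 CPM at day 1, 2261 ± 68.7 CPM at day 7 and 1353 ± 81.2 CPM at day 14. In bulk RNA, fewer cells in S phase and less of each transcript per cell cannot be told apart.

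From day 7 to day 14, 34 of the 39 genes fell (edgeR quasi-likelihood test, Benjamini-Hochberg adjusted p under 0.05), against 35.1% of all genes tested. None rose, at an unadjusted p under 0.05 or with DESeq2 either, while 32.5% of all genes rose. The median log2 fold change of the 39 was -0.73, which is 60.2% of the day 7 level, and that of all genes tested was -0.03. For the same 34 genes that fell, all day 14 libraries lay below all day 7 libraries, a pattern shared by 37.4% of all genes. Falls of more than 2-fold were found in 5 genes (Tk1, Mcm5, Mcm3, Mcm10 and Mcm2), against 7.75% of all genes. Those that did not pass the test were Pcna, Orc6, Cdt1, Orc1 and Ccne1.

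In the first week fewer of the genes were called, and they moved both ways. From day 1 to day 7, 13 of the 39 genes fell, against 24% of all genes, and 3 rose, against 25.5% of all genes. In 17 genes every day 7 library was below every day 1 library, as in 30% of all genes. The median log2 fold change of the 39 was -0.11, and that of all genes was -0.00. The number that fell depended on single libraries. It was 7 without library 3 of day 7, where 2877 of 14820 genes tested fell. Without library 5 of day 1 it was 8, where 3091 of 14747 fell. Both counts were close to the share of all genes. With library totals in place of trimmed-mean (TMM) scaling, 22 of the 39 fell and 1 rose, against 4789 and 2658 of 14507 genes tested. With that scaling the median of all genes shifted to -0.10 for the first week, -0.21 for the second and -0.32 for the whole span, and the share of called genes that rose was 35.7%, 34.9% and 31.9%, against 51.5%, 48.1% and 48.1% with TMM.

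Tested directly, the change of the second week was more negative than that of the first in 31 of the 39 genes, against 27.6% of all genes. It was more positive in none, although Orc1 had an unadjusted p under 0.05 and passed with DESeq2, while 24.2% of all genes were more positive. By pattern, 21 genes fell in the second week without a called change in the first, 10 fell in both, and 3 (Pola1, Tk1 and Ccne2) rose and then fell. Cdt1, Orc1 and Ccne1 were called lower in the first week and not called in the second, and Pcna and Orc6 were called in neither week. The share of all genes with each pattern was not counted, so these counts only sort the 39 genes. Over the whole span, 36 genes were lower at day 14 than at day 1, against 38.4% of all genes, 7 of them by more than 2-fold, against 14.3% of all genes. Pcna was the 1 gene that was higher, against 35.5% of all genes. Days are shared between these comparisons, since the day 7 libraries enter both weeks.

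**Figure D1:**
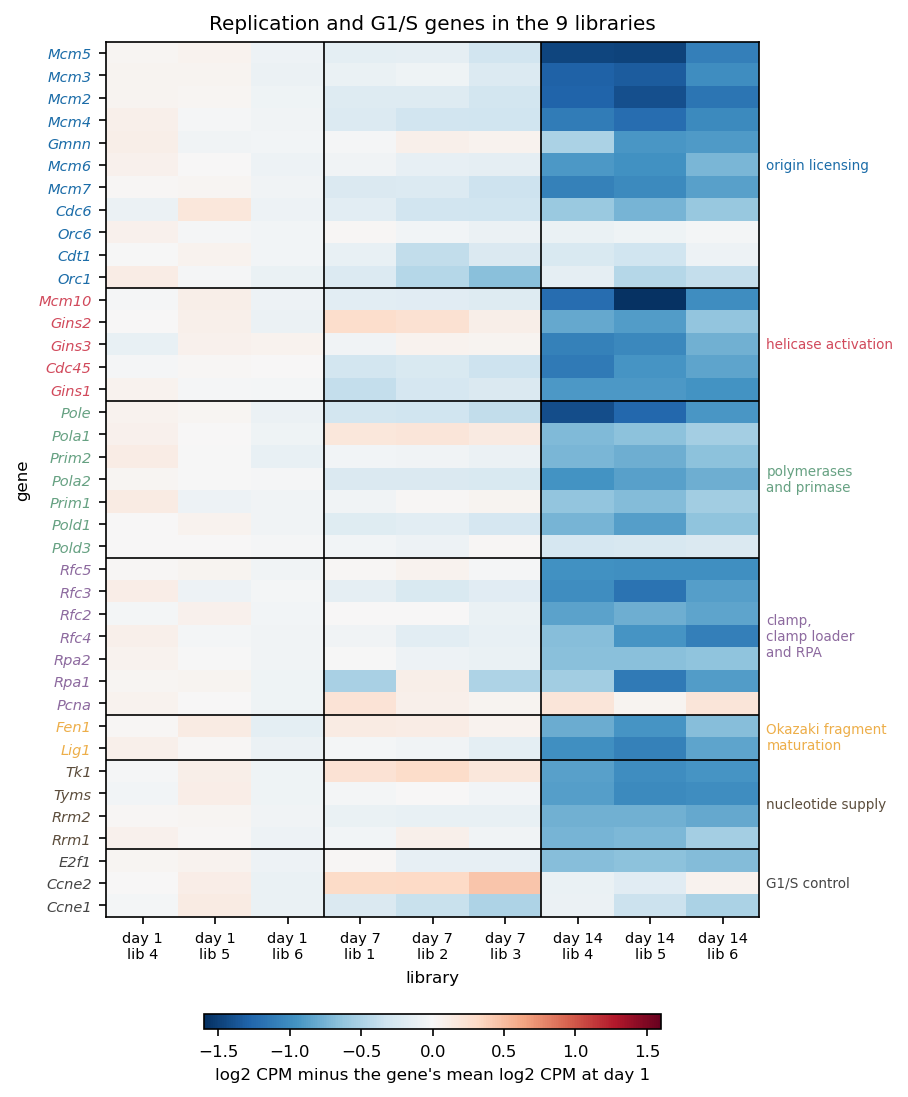
Level of each of the 39 genes (vertical axis, grouped by role) in each of the 9 libraries (horizontal axis, by day), as log2 CPM minus the gene's mean log2 CPM at day 1, with blue for lower and red for higher. The blue block at day 14 covers nearly all genes, and Pcna and Orc6 stay close to their day 1 level.

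**Figure D2:**
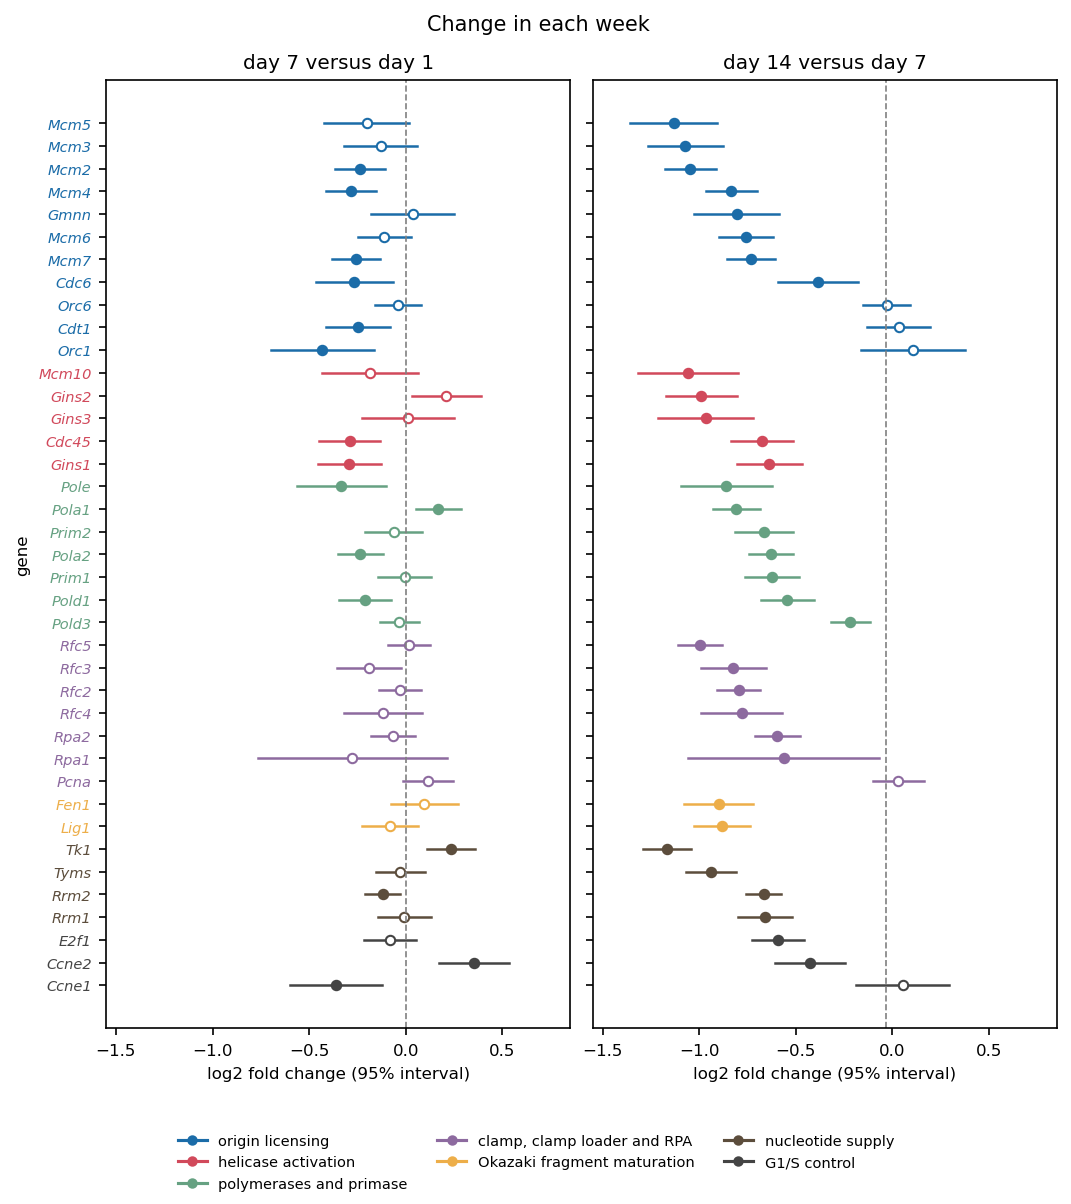
Log2 fold change of each gene with its 95% interval for day 7 versus day 1 (left) and day 14 versus day 7 (right); filled circles passed an adjusted p under 0.05, colours give the role, and the dashed line is the median of all genes tested. In the second week 34 genes lie left of the line with filled circles, and in the first week the genes lie on both sides of it.

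Promoter windows of the RefSeq annotation (GRCm38.p6, 250 bases before to 50 bases after a start annotated for a gene) were found for 31 of the 39 genes. The table holds 35 windows for them, since Lig1 has 3 annotated starts and Mcm7 and Fen1 have 2 each, and a gene was counted as holding a motif when any of its windows did; all genes were counted in the same way. The windows were searched for E2F sites, the element through which E2F factors bind. The letters searched were TTTCCCGC, TTTGGCGC, TTTGCCGC and TTTCGCGC on both strands, and overlapping matches were counted. A match was present for 13 of the 31 genes (41.9%), against 2.605% of 27025 genes with a window and 4.62% of the 11317 among them that were tested. In the 250 bases before the start alone, 8 of the 31 genes (25.8%) held one, against 2.16% of all genes and 3.86% of tested genes. The CCAAT box (CCAAT, both strands) was present for 58.1% of the genes, 41.1% of all genes and 43.0% of tested genes. For the CHR element of late cell cycle promoters (TTTGAA or TTCGAA, both strands) these shares were 19.4%, 21.7% and 16.6%. Tk1, Mcm10 and Mcm2, which each fell by more than 2-fold in the second week, had a window without a match. The Mcm10 window ends in all but the last letter of TTTGGCGC, so a match that runs past its edge could not be seen. Windows of the 6 genes with a match that fell most in the second week are shown, chosen by the size of that fall, with E2F matches in capitals.
Mcm5 (chr8:75109259-75109558, plus strand): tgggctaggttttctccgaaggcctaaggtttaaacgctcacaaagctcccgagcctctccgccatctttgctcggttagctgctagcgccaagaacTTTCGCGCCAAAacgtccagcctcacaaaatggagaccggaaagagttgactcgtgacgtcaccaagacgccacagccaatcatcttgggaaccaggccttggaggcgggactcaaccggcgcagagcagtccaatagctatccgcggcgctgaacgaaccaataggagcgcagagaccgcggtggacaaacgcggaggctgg
Mcm3 (chr1:20820263-20820562, minus strand): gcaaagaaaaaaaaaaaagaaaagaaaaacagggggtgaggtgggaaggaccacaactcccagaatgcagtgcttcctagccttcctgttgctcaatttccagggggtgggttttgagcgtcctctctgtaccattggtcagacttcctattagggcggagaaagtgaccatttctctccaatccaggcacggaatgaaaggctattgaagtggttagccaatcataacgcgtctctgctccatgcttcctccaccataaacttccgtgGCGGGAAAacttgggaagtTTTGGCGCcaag
Gins3 (chr8:95633309-95633608, plus strand): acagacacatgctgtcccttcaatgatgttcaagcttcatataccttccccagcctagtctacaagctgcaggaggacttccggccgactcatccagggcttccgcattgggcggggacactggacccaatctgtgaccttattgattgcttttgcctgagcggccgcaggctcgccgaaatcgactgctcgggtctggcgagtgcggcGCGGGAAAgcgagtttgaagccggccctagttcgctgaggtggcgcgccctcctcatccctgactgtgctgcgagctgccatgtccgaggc
Lig1 (chr7:13278576-13278875, plus strand): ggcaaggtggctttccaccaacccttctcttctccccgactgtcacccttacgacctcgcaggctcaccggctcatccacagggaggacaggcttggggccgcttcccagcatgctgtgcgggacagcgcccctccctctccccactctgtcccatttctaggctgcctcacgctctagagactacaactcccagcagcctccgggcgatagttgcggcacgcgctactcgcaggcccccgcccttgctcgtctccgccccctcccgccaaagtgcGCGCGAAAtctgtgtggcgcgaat
Rfc3 (chr5:151651159-151651458, minus strand): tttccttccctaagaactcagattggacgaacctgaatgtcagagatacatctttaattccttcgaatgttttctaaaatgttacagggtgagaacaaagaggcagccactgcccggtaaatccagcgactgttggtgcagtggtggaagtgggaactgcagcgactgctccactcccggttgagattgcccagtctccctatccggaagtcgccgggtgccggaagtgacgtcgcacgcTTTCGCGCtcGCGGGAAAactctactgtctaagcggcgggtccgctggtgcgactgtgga
Pola1 (chrX:93632106-93632405, minus strand): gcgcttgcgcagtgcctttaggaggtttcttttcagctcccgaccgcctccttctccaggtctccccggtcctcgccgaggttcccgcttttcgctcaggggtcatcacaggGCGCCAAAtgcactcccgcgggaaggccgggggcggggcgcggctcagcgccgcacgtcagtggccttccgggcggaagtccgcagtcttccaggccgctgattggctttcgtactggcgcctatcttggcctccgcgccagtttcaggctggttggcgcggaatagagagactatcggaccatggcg
The Lig1 window shown belongs to the second of its 3 starts; the windows at the other 2 starts, chr7:13276925-13277224 and chr7:13279015-13279314, held no match.
For 2 genes that did not fall in the second week, Orc1 and Cdt1, the window also held a match, and they are shown for contrast; they were chosen after their values were seen.
Orc1 (chr4:108579204-108579503, plus strand): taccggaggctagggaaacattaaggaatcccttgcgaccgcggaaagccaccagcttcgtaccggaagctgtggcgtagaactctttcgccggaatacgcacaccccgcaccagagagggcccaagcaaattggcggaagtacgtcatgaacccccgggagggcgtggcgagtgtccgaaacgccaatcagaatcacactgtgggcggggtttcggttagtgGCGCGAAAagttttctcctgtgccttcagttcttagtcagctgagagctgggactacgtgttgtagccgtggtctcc
Cdt1 (chr8:122567765-122568064, plus strand): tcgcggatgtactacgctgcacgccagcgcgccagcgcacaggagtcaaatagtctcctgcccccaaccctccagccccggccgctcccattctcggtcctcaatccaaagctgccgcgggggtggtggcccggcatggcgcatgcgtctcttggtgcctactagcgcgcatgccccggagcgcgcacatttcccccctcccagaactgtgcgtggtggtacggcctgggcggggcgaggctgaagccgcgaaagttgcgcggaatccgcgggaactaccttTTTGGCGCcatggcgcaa
The Mcm5 window holds overlapping matches at 153 and 149 bases before the start, and that of Mcm3 has its matches 19 and 38 bases after it. These distances count from the start that the window was placed on, which need not be the first base of the gene. The Orc1 window, for example, lies inside the gene, which begins at 108575705. A match describes the letters of the window only. The other genes with a match were Mcm6, Mcm7, Pold1, Cdc6 and Pold3.

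Of the origin licensing genes, all but Cdt1, Orc1 and Orc6 fell in the second week. All of Mcm2 to Mcm7 fell from day 7 to day 14, with a median log2 fold change of -0.94, and of the 11 licensing genes 8 fell (median -0.76). Mcm5, a subunit of the ring (chromosome 8, 75109468 to 75128439, mm10), was at 142, 145 and 132 CPM at day 1, 125, 126 and 113 CPM at day 7 and 50.6, 49.9 and 65.6 CPM at day 14. All its day 14 libraries lay below all its day 7 libraries, and the log2 fold change from day 7 to day 14 was -1.13 ± 0.10 (SE, adjusted p = 5.6e-06). In the first week the change of Mcm5 did not pass the test at -0.20 ± 0.10 (SE, adjusted p = 0.12). It passed with library totals alone and without library 6 of day 14 (adjusted p = 0.0093 without that library).

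Mcm2 (chromosome 6, 88883474 to 88898780) was at 163, 161 and 149.5 CPM at day 1, 137, 136 and 129 CPM at day 7 and 65.02, 59.6 and 69.8 CPM at day 14. Its groups did not overlap in either week, and it fell in both, with log2 fold changes of -0.24 ± 0.06 (SE, adjusted p = 0.0056) and -1.05 ± 0.06 (SE, adjusted p = 2.1e-08). The difference between the weeks was -0.81 ± 0.10 (SE, adjusted p = 4.7e-05). Mcm4 and Mcm7 also fell in both weeks, with -0.28 and -0.26 in the first and -0.83 and -0.73 in the second. Mcm3 and Mcm6 were called only in the second week, at -1.07 and -0.76.

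Per kilobase of exon, the 6 subunits of the ring spread apart with age. At day 1 the highest (Mcm6, 52.8 CPM per kilobase) was 1.45 times the lowest (Mcm7, 36.5), at day 7 1.605 times (Mcm6 48.96, Mcm7 30.5) and at day 14 1.81 times (Mcm6 28.9, Mcm5 16.02). These ratios are of day means and carry no test.

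Cdc6, the ATPase that helps to load the ring, fell in both weeks (-0.27 and -0.39), and its first-week call was lost without library 5 of day 1, library 2 of day 7 or library 3 of day 7 (highest adjusted p 0.14). Geminin was at 31.3, 27.99 and 28.4 CPM at day 1, 28.7, 30.9 and 30.2 CPM at day 7 and 20.5, 15.3 and 15.5 CPM at day 14. Its libraries of days 1 and 7 overlapped, and it was 57.1% of its day 7 level at day 14 (log2 fold change -0.81 ± 0.10 (SE, adjusted p = 1.9e-05)). Cdt1, the loading factor that geminin binds, was at 55.2, 57.4 and 53.5 CPM at day 1, 50.8, 42.02 and 47.2 CPM at day 7 and 46.7, 44.2 and 52.3 CPM at day 14. Its libraries of days 7 and 14 overlapped and the log2 fold change between them was 0.03 ± 0.08 (SE, adjusted p = 0.72), with a 95% interval of -0.13 to 0.20. Per kilobase of exon, the ratio of Cdt1 to Gmnn was 1.18 to 1.37 in the day 1 libraries, 0.910 to 1.18 at day 7 and 1.52 to 2.25 at day 14, so that all day 14 libraries lay above all others. The sign of the second-week change of Cdt1 turned with library totals (-0.14) and without library 2 of day 7 or library 6 of day 14, to -0.048 and -0.046.

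Orc1, the ATPase subunit of the origin recognition complex, was at 12.8, 11.6 and 10.9 CPM at day 1, 10.1, 8.61 and 7.43 CPM at day 7 and 10.7, 8.597 and 8.99 CPM at day 14. It fell in the first week (-0.43 ± 0.12 (SE, adjusted p = 0.011)), a call lost without library 3 of day 7 (adjusted p = 0.055), and at day 14 its libraries overlapped those of day 7 (0.11 ± 0.12 (SE, adjusted p = 0.46)). Orc6, another subunit (chromosome 8, 85299632 to 85308279), was at 32.3, 30.5 and 29.96 CPM at day 1, 31.3, 30.1 and 29.01 CPM at day 7 and 28.7, 29.6 and 30.2 CPM at day 14. Its 9 values lay between 28.7 and 32.3 CPM with overlap between all days, and the second-week change was -0.03 with a 95% interval of -0.15 to 0.09. Of the exons of Orc6, 9.57% lie opposite exons of Vps35, which averaged 152.6, 184.3 and 165.3 CPM at days 1, 7 and 14. The share of reads between this pair was not tested. With library totals alone Orc6 did pass as lower at day 14 than at day 7 (adjusted p = 0.0064), a scaling under which the median of all genes shifted as well.

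**Figure D3:**
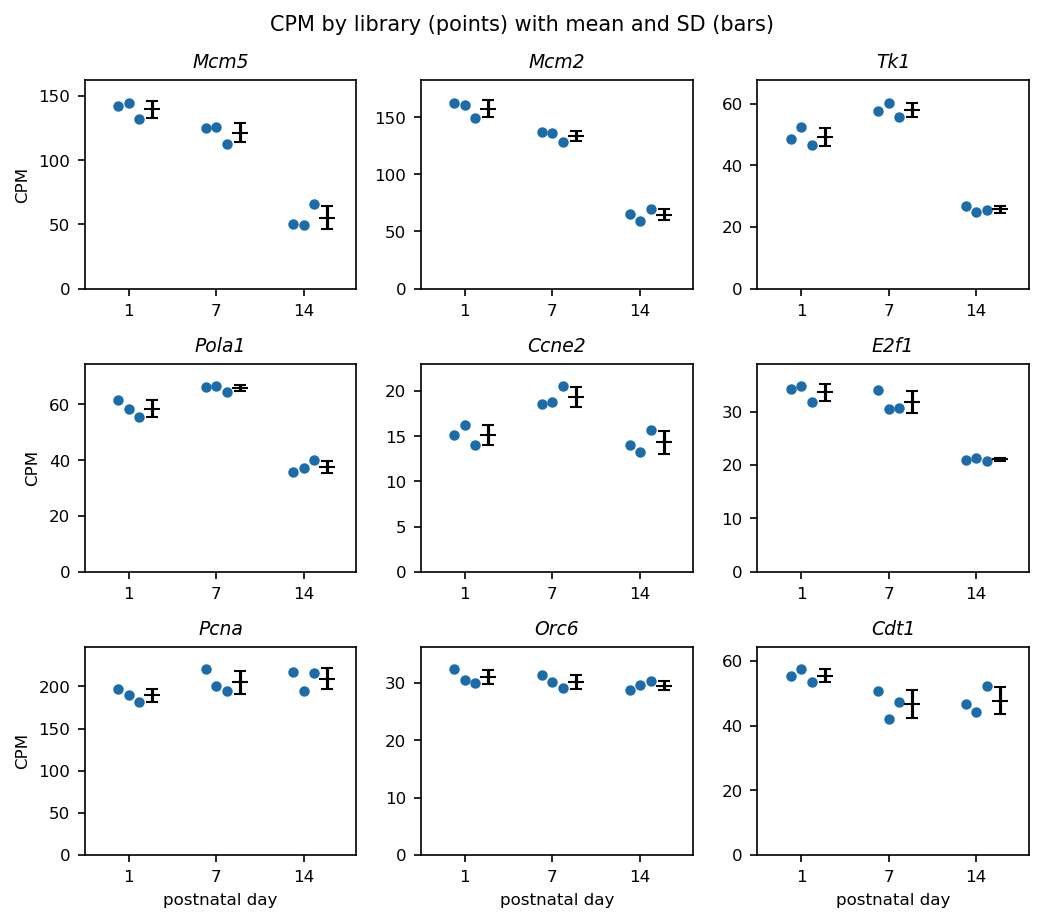
CPM of 9 genes (vertical axes, each starting at 0) at postnatal days 1, 7 and 14 (horizontal axes), with each library as a point and the mean and SD beside it. Mcm5, Mcm2, Tk1, Pola1 and E2f1 drop at day 14, Ccne2 peaks at day 7, and Pcna, Orc6 and Cdt1 overlap between days 7 and 14.

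All 5 genes of helicase activation fell in the second week, with a median log2 fold change of -0.97. Mcm10, which helps to start unwinding, was at 17.97, 19.4 and 17.3 CPM at day 1, 16.2, 16.1 and 15.8 CPM at day 7 and 7.81, 6.09 and 9.17 CPM at day 14. Its day 14 values were the most spread out, but all lay below those of day 7, and the change was -1.06 ± 0.12 (SE, adjusted p = 7e-06). Gins1, the GINS subunit with the smallest change of the group, was at 13.9, 13.2 and 13.1 CPM at day 1, 10.3, 11.1 and 11.4 CPM at day 7 and 7.09, 7.05 and 6.91 CPM at day 14. It fell in both weeks without overlap, at -0.29 ± 0.07 (SE, adjusted p = 0.0062) and -0.64 ± 0.08 (SE, adjusted p = 1.3e-05). Cdc45, the partner of GINS in the helicase, also fell in both weeks (-0.29 and -0.68). Gins2 and Gins3 were called only in the second week (-0.99 and -0.97). Of the exons of Gins2, 70.7% lie opposite exons of Gse1, which averaged 187, 162 and 304 CPM at days 1, 7 and 14; the strand setting of the counting is not given in the sources used here, and the share of reads between the pair was not tested.

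The 7 polymerase and primase genes all fell in the second week (median -0.63), and the size of the fall differed between the enzymes. Pole, the catalytic subunit of leading-strand polymerase epsilon, was at 68.1, 67.04 and 61.4 CPM at day 1, 53.6, 52.6 and 49.8 CPM at day 7 and 24.4, 27.3 and 34.2 CPM at day 14. The day 14 values were all below those of day 7, at -0.86 ± 0.10 (SE, adjusted p = 4.5e-05). Its first-week fall (-0.33 ± 0.10 (SE, adjusted p = 0.021)) was lost without library 4 of day 1, library 5 of day 1 or library 3 of day 7, with an adjusted p of 0.070 without the last. Pold3, an accessory subunit of lagging-strand polymerase delta, was at 41.7, 41.9 and 41.1 CPM at day 1, 40.4, 39.2 and 42.1 CPM at day 7 and 34.6, 34.7 and 35.3 CPM at day 14. The day 14 libraries sat below those of day 7 with little spread, and the change was the smallest among the 34 genes that fell, at -0.22 ± 0.05 (SE, adjusted p = 0.0012). Its catalytic partner Pold1 fell in the second week too (-0.54).

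Pola1, the catalytic subunit of primer-making polymerase alpha and the X-linked gene of the set (chromosome X, 93304766 to 93632387), was at 61.4, 58.5 and 55.6 CPM at day 1, 66.2, 66.6 and 64.6 CPM at day 7 and 35.7, 37.1 and 40 CPM at day 14. It was higher in every day 7 library than in every day 1 library, then lower in every day 14 library than in either. The second-week change was -0.81 ± 0.05 (SE, adjusted p = 8.6e-08). Its rise in the first week (0.17 ± 0.05 (SE, adjusted p = 0.02)) was not called without library 6 of day 1, library 1 of day 7 or library 2 of day 7, nor with library totals (adjusted p = 0.31). Its partner subunits Pola2, Prim1 and Prim2 fell in the second week, at -0.63, -0.62 and -0.67, and Pola2 also in the first (-0.23).

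Among the clamp, clamp loader and RPA genes, 6 of 7 fell in the second week and Pcna did not. Pcna encodes the ring that holds the polymerases on DNA and that also serves DNA repair (chromosome 2, 132249286 to 132253180); it has annotated pseudogene copies, and how reads shared with them were counted is not given in the sources used here. It was at 197, 190.0 and 181 CPM at day 1, 220.3, 200.3 and 194 CPM at day 7 and 217, 195 and 216 CPM at day 14. The libraries of days 7 and 14 overlapped, and the log2 fold change between them was 0.03 ± 0.06 (SE, adjusted p = 0.68), with a 95% interval of -0.10 to 0.16. With library totals it was -0.14 (adjusted p = 0.04), when the median of all genes was -0.21. Against day 1, Pcna was higher at day 14 by 0.14 ± 0.06 (SE, adjusted p = 0.046), and this call was lost in 10 of the alternatives, among them those without libraries 5 or 6 of day 1, libraries 2 or 3 of day 7, or libraries 4 or 6 of day 14 (highest adjusted p 0.20).

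Per kilobase of exon, Pcna set against the mean of Mcm2 to Mcm7 gave a ratio of 2.77 to 2.82 in the day 1 libraries, 3.36 to 3.64 at day 7 and 6.25 to 7.196 at day 14. The libraries of the 3 days did not overlap in this ratio. It does not depend on the scaling between libraries, since both levels come from the same library.

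Rfc5, a subunit of the clamp loader, was at 38.6, 39.4 and 36.5 CPM at day 1, 38.7, 39.6 and 37.6 CPM at day 7 and 19.5, 19.4 and 19.3 CPM at day 14. Its 3 day 14 values were close to each other and far below those of day 7, with a change of -0.995 ± 0.05 (SE, adjusted p = 1e-08) and none called in the first week (0.02 ± 0.05 (SE, adjusted p = 0.81)). The other loader subunits Rfc2, Rfc3 and Rfc4 fell in the second week, at -0.80, -0.82 and -0.78. Rpa2, of the complex that coats single-stranded DNA, fell as well (-0.60). Its partner Rpa1 was at 112, 113 and 105 CPM at day 1, 76.8, 118 and 78.02 CPM at day 7 and 74.7, 50.4 and 59.4 CPM at day 14. It had the largest SE of the 39 genes. Day 7 library 2 was close to the day 1 libraries and the other 2 day 7 libraries were near the highest of day 14. The second-week fall of Rpa1 (-0.56 ± 0.21 (SE, adjusted p = 0.046)) was lost in 8 alternatives, among them those without any 1 of the day 1 libraries, library 2 of day 7, library 5 of day 14 or library 6 of day 14 (highest adjusted p 0.12), and the first-week change was called only without library 2 of day 7 (adjusted p = 0.026).

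Both genes of Okazaki fragment maturation fell in the second week. Fen1, the nuclease that trims the flaps between fragments, was at 36.5, 39.3 and 32.3 CPM at day 1, 39.3, 38.9 and 37.3 CPM at day 7 and 20.8, 18.7 and 22.5 CPM at day 14, with no overlap between days 7 and 14 and a change of -0.90 ± 0.08 (SE, adjusted p = 1.1e-06). Lig1, the ligase that seals them, was at 107, 103 and 95.2 CPM at day 1, 99.8, 97.9 and 90.8 CPM at day 7 and 51.6, 47.96 and 56.8 CPM at day 14 and changed by -0.88 ± 0.07 (SE, adjusted p = 2.3e-07). Neither was called in the first week. Of the Fen1 exons, 78.8% lie opposite an annotated antisense gene, Gm10143, which was not analysed here.

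All 4 genes of nucleotide supply fell in the second week. Tk1, thymidine kinase of the salvage pathway (chromosome 11, 117815519 to 117826087), was at 48.5, 52.4 and 46.7 CPM at day 1, 57.8, 60.3 and 55.6 CPM at day 7 and 26.9, 24.8 and 25.6 CPM at day 14. The day 7 libraries were the highest and the day 14 libraries the lowest, without overlap. Tk1 rose in the first week by 0.23 ± 0.06 (SE, adjusted p = 0.0042) and fell in the second with -1.17 ± 0.06 (SE, adjusted p = 5.9e-09), the largest fall of the 39 genes, and the difference between the weeks was -1.403 ± 0.10 (SE, adjusted p = 6.2e-07). With library totals the first-week rise was not called (adjusted p = 0.071).

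Rrm1, the large subunit of ribonucleotide reductase, was at 229, 220.5 and 206 CPM at day 1, 212, 230.0 and 209.5 CPM at day 7 and 130.5, 132 and 149 CPM at day 14. Its libraries of days 1 and 7 overlapped, and all day 14 libraries were lower (-0.66 ± 0.06 (SE, adjusted p = 1.8e-06)). Rrm2, its S phase partner, was at 91.9, 92.8 and 87.6 CPM at day 1, 83.99, 83.5 and 83.2 CPM at day 7 and 53.5, 53.05 and 51.5 CPM at day 14 and fell in the second week (-0.67 ± 0.04 (SE, adjusted p = 4.3e-08)). A smaller fall of Rrm2 in the first week (-0.12 ± 0.04 (SE, adjusted p = 0.03)) was lost without libraries 4 or 5 of day 1 or any 1 of the day 7 libraries (highest adjusted p 0.087). Tyms, thymidylate synthase, which has an annotated pseudogene copy, fell in the second week (-0.94).

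The 3 genes of G1/S control each followed a course of their own. E2f1, an activating E2F factor, was at 34.2, 34.8 and 31.8 CPM at day 1, 34.1, 30.5 and 30.7 CPM at day 7 and 21.01, 21.3 and 20.8 CPM at day 14 and fell in the second week with no overlap (-0.59 ± 0.06 (SE, adjusted p = 3.7e-06)). Ccne1 and Ccne2 encode the E cyclins, the partners of Cdk2 at the start of S phase. Ccne2 was at 15.1, 16.2 and 14.01 CPM at day 1, 18.6, 18.8 and 20.6 CPM at day 7 and 14.02, 13.3 and 15.7 CPM at day 14. Its day 7 libraries were the highest, with a rise of 0.35 ± 0.08 (SE, adjusted p = 0.0037) and then a log2 fold change of -0.43 ± 0.08 (SE, adjusted p = 0.00065), and its day 14 libraries overlapped those of day 1 (-0.07 ± 0.08 (SE, adjusted p = 0.44)). Of the exons of Ccne2, 19.03% lie opposite exons of Ints8, which averaged 49.45, 50.64 and 48.15 CPM at days 1, 7 and 14. How reads divide between this pair was not tested. Ccne1 was at 16.1, 18.02 and 15.3 CPM at day 1, 14.01, 12.8 and 11.7 CPM at day 7 and 15.5, 12.9 and 11.6 CPM at day 14. It fell in the first week (-0.36 ± 0.11 (SE, adjusted p = 0.016)), a call lost without library 5 of day 1 or library 3 of day 7 (highest adjusted p 0.075), and its libraries of days 7 and 14 overlapped (0.05 ± 0.11 (SE, adjusted p = 0.69), 95% interval -0.19 to 0.29). Per kilobase of exon, Ccne1 over Ccne2 was 1.64 to 1.71 at day 1, 0.877 to 1.16 at day 7 and 1.13 to 1.70 at day 14.

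Over the whole span, Ccne1, Orc1 and Cdt1 were called lower at day 14 than at day 1 (-0.31, -0.32 and -0.21), and each call was lost without 1 of 3 libraries. For Ccne1 these were library 5 of day 1, library 5 of day 14 and library 6 of day 14 (highest adjusted p 0.091), for Orc1 library 4 of day 1, library 5 of day 14 and library 6 of day 14 (0.10), and for Cdt1 library 5 of day 1, library 4 of day 14 and library 5 of day 14 (0.083). The first-week falls of Pold1 (lost without library 5 of day 1 or library 3 of day 7, highest adjusted p 0.064) and Cdt1 (lost without library 5 of day 1 or library 2 of day 7, 0.077) also rested on single libraries. In the first week, Gins2 was not called (0.21 ± 0.08 (SE, adjusted p = 0.052)). It passed as higher without library 5 of day 1, library 3 of day 7, library 5 of day 14 or library 6 of day 14. Gins2 also passed with TMM without the 50 most abundant genes. Rfc3 was not called either (-0.19 ± 0.08 (SE, adjusted p = 0.053)). It passed as lower without library 5 of day 1, library 5 of day 14 or library 6 of day 14. Rfc3 also passed with RLE size factors, library totals and DESeq2. The difference between the weeks was lost for Cdc45 without library 2 of day 7 (adjusted p = 0.079), for Pold1 without libraries 1 or 2 of day 7 (highest 0.079), for Pole without those or library 5 of day 14 (highest 0.088) and for Gins1 without libraries 5 or 6 of day 1, libraries 2 or 3 of day 7, or libraries 5 or 6 of day 14 (highest 0.14). For Gins1 it was also lost with RLE size factors and with DESeq2. The difference passed as more positive for Orc1 without library 1 of day 7 or library 5 of day 14 (lowest adjusted p 0.014). For Orc1 it also passed with RLE size factors and with DESeq2. It was more positive as well for Cdt1 without library 1 of day 7 (0.035) and for Ccne1 without library 6 of day 14 (0.039). Of the 34 second-week falls, only that of Rpa1 was lost in any of the alternatives run.

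The order of the levels was much alike on the 3 days. Per kilobase of exon, Pcna was first on every day, at 125 ± 5.14 CPM per kilobase at day 1, 135 ± 8.995 at day 7 and 138 ± 8.23 at day 14 (SD, n = 3). Rrm1, Mcm6 and Mcm4 followed in this order on each day, with Rrm1 at 54.6, 54.3 and 34.4. Gins3, Cdc6, Mcm10 and Orc1 were the 4 lowest on every day, Gins3 at 2.93, 2.95 and 1.51. Cdt1 stood at rank 6 at day 14, against 14 at day 7, and Orc6 at rank 12, against 17, while Mcm5 stood at rank 13, against 9.

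**Figure D4:**
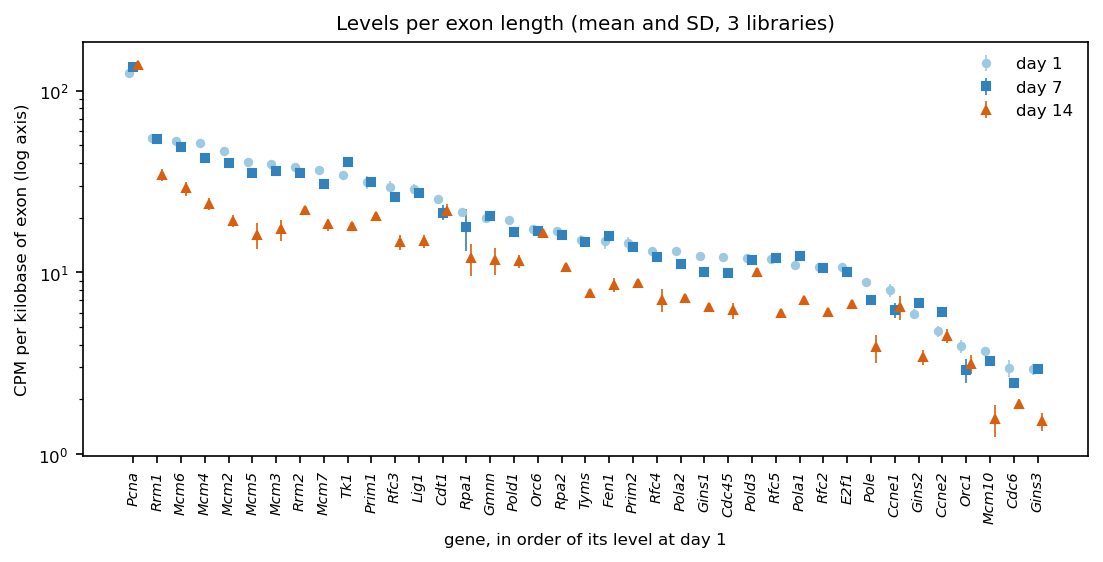
Mean level of each gene in CPM per kilobase of exon (vertical log axis) at days 1, 7 and 14, with SD over 3 libraries as bars; genes run along the horizontal axis in order of their day 1 level. Day 14 triangles sit below the other symbols for nearly all genes, and at about the same height for Pcna, Orc6 and Cdt1.

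Within a day, the genes tended to share the library in which they were highest. Of the 39, none was highest in library 6 of day 1, against 29.8% of all genes tested, and 25 were highest in library 6 of day 14, against 34.4%. They are therefore not independent measures of a day.

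Beyond the 39 genes, 7 further lists of the same machinery and its control held 71 genes, of which 70 were tested. From day 7 to day 14, 46 of them fell and 12 rose, against 35.1% and 32.5% of all genes tested. The counts of each list below are to be read against the same shares.

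Of 14 other licensing and firing factors, 11 fell (median -0.40). Ticrr, which brings Cdc45 to origins, fell the most (-1.14), followed by Wdhd1 (-0.91), which links helicase and polymerase alpha, and Cdc7 (-0.65), the kinase that fires origins. Of 10 other subunits of polymerases, clamp loaders and RPA, 8 fell (median -0.67), among them the alternative loader subunits Chtf18 (-1.07) and Dscc1 (-0.88) and the polymerase delta subunit Pold2 (-0.80). All 12 other fork and Okazaki factors fell (median -0.90), with the histone chaperone Asf1b (-1.29), the checkpoint adaptor Clspn (-1.18) and the nuclease Dna2 (-1.16) first. Of 8 other nucleotide supply genes, 6 fell (median -0.75), among them Dctd (-0.88) and Dtymk (-0.82). The gene that rose there was Samhd1, which breaks down deoxynucleotides, at 19.2, 22.01 and 22.1 CPM at day 1, 23.5, 23.6 and 25.4 CPM at day 7 and 39.2, 41.7 and 40.9 CPM at day 14 (0.75 ± 0.07 (SE, adjusted p = 9.4e-07)); it was named after its values were seen.

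Of 8 cyclins and kinases of G1 and S, 4 fell and 3 rose, not far from the 35.1% and 32.5% of all genes, with a median of -0.0004. Ccna2, the S phase cyclin, was at 104, 108 and 105 CPM at day 1, 107, 118 and 110.0 CPM at day 7 and 44.3, 42.4 and 43.6 CPM at day 14 and fell (-1.36 ± 0.05 (SE, adjusted p = 4.2e-10)). Cdk4, a kinase of G1, and Ccnd2, one of its cyclins, fell as well (-0.70 and -0.54). Another of its cyclins, Ccnd1, was at 202, 186 and 172 CPM at day 1, 156, 151 and 139.5 CPM at day 7 and 251, 237 and 292 CPM at day 14, with the day 14 libraries above all others, and rose by 0.80 ± 0.08 (SE, adjusted p = 6.2e-06).

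Among 12 E2F, DP and pocket protein genes, 5 fell and 3 rose, also near the shares of all genes (median -0.04). E2f7, a repressing E2F, was at 48.8, 49.1 and 49.99 CPM at day 1, 32.7, 29.4 and 28.5 CPM at day 7 and 10.8, 10.3 and 10.3 CPM at day 14 and fell in both weeks (-0.71 ± 0.06 (SE, adjusted p = 1.3e-06) and -1.52 ± 0.06 (SE, adjusted p = 1.6e-09)). E2f6, another repressor, and Rbl1, a pocket protein, fell in the second week, at -1.02 and -0.87.

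Inhibitors of cyclin-dependent kinases moved opposite to the replication genes, with 5 of 6 tested genes higher at day 14 than at day 7, against 32.5% of all genes, and a median log2 fold change of 1.35. Cdkn1b (p27) was at 61.5, 56.1 and 62.7 CPM at day 1, 79.4, 82.1 and 85.5 CPM at day 7 and 236, 216 and 214 CPM at day 14. It rose in both weeks without overlap, by 0.45 ± 0.06 (SE, adjusted p = 3.7e-05) and 1.43 ± 0.06 (SE, adjusted p = 1.2e-09). Cdkn1a (p21) was at 219, 223 and 259.9 CPM at day 1, 350.5, 249 and 293 CPM at day 7 and 827, 803 and 661 CPM at day 14 and rose in the second week (1.36 ± 0.14 (SE, adjusted p = 6e-05)). Cdkn1c (p57) was at 8.45, 9.96 and 11.4 CPM at day 1, 4.18, 3.33 and 3.54 CPM at day 7 and 10.8, 8.88 and 11.7 CPM at day 14, lowest at day 7, with -1.43 ± 0.14 (SE, adjusted p = 5.7e-06) in the first week and 1.5 ± 0.14 (SE, adjusted p = 1.9e-06) in the second. The seventh, Cdkn2a, was at 0 counts in 8 of 9 libraries and was not tested.

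All 15 genes of a mitosis list fell in the second week (median -1.08), with Plk1 (-1.34), Kif20a (-1.302) and Aurka (-1.3) first and Mki67, a marker of cycling cells, at -0.88. No test of the difference between the mitosis and replication lists was made. Of the 10 keratinocyte markers, 4 fell and 4 rose. The basal keratin Krt14 and the suprabasal keratin Krt1 fell (-0.57 and -0.91), and Perp, a desmosome gene, rose by 0.66.

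**Figure D5:**
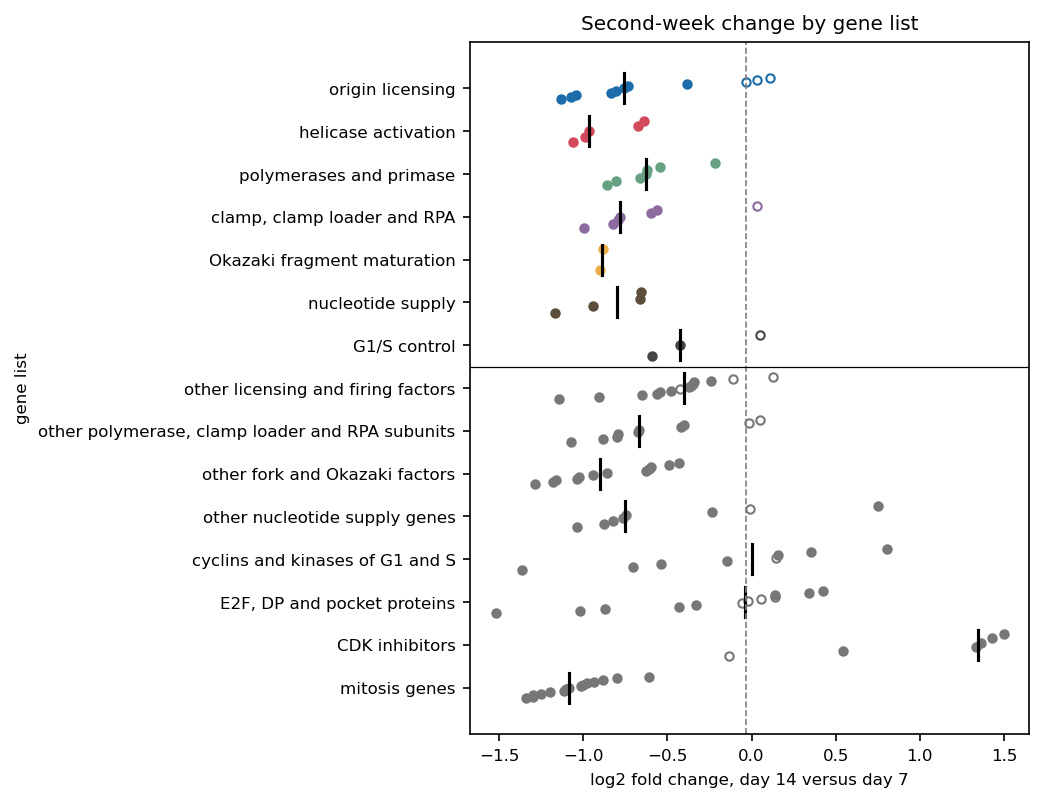
Log2 fold change from day 7 to day 14 (horizontal axis) of each tested gene by list (vertical axis), with the 7 roles of the 39 genes above the line and other lists below it; filled circles passed an adjusted p under 0.05, black bars are list medians and the dashed line is the median of all genes tested. The medians of all roles, the fork factors and the mitosis genes lie left of the line, as do their genes other than Pcna, Orc1, Cdt1, Orc6 and Ccne1; G1 cyclins and E2F genes lie on both sides, and CDK inhibitors lie mostly to the right.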

How the data were processed

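The deposited table holds whole-number read counts per gene, not normalised by the authors, for 24532 genes, per the file headers. Stranded mRNA libraries were sequenced on a NovaSeq instrument, per the labels' protocols. Per the submitters' processing notes, the build was mm10 and the tools were HISAT2 2.1.0, StringTie 1.3.4d, Trimmomatic and bcl2fastq 2.20.0. How reads were counted, and on which strand, is not given in the sources used here, so reads of a gene and of an opposite-strand neighbour cannot be told apart. Exons of 13 of the 39 genes overlap such neighbours. Among them are Rfc2 (19.06% of its exons, opposite Lat2), Rfc5 (15.42%, Wsb2) and Rfc4 (13.38%, Eif4a2). A further 18 columns per sample were not used.

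For the tests, a quasi-likelihood model with day as factor was fitted to all 9 libraries with edgeR 4.0.16 (R 4.3.3), after TMM scaling and the filterByExpr filter. P-values were Benjamini-Hochberg adjusted over all 14507 genes tested, and an adjusted p under 0.05 was called. Levels are CPM on TMM-scaled libraries, and levels compared between genes are CPM per kilobase of merged GENCODE M21 exons. The steps were tested on simulated counts. Taken over all genes tested, same-day libraries differed by more than sampling noise. DESeq2 1.42.0, other scalings, no filter, a replicate block and leaving out each library were tried as alternatives.

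The 39 genes and the other lists were chosen with earlier results of these data known. Given in every library are the genes with the largest and the smallest second-week change in each role, and Pcna, Mcm2, Gmnn, E2f1, Rrm2 and Pola1; from each other list up to 3 called genes with the largest change, some chosen regulators, and promoters of the first 6 genes with an E2F match are given; 1 gene that this rule names is not reported here. Cdt1, Orc1, Rpa1 and Ccne2 were added after their values were seen. Depth limits the counting error, which was not compared with the spread between libraries gene by gene. For genes of low count it need not be small beside that spread. An example is Gins1, with 355, 374 and 347 counts in the day 14 libraries.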

Additional observations from a re-analysis of the deposited data

How the results depend on the processing

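The second-week falls depended little on the processing: 33 to 36 of the 39 genes fell under the alternatives run, and without single libraries 33 to 34. Of all genes tested, between 4718 (of 14779, without library 2 of day 7) and 6653 (of 14507, with library totals) fell. The first-week counts moved more. With library totals alone 22 genes fell and 1 rose, against 4789 and 2658 of all 14507 genes tested. Leaving out single libraries gave 7 to 15 falls and 2 to 4 rises. In those runs 2877 to 3540 of all genes fell and 3219 to 3728 rose, of 14706 to 14820 tested. Pcna as the gene higher at day 14 than at day 1 became 0 genes with library totals, with TMM without the 50 most abundant genes, with no low-count filter and with the replicate block, and 0 to 1 without single libraries. The count of genes with a more positive second week became 1 with RLE size factors and with DESeq2, and 0 to 2 without single libraries. With library totals the sign turned for Pcna (-0.14), Cdt1 (-0.14), Orc1 (-0.065) and Ccne1 (-0.12) from day 7 to day 14 and for Pcna from day 1 to day 14 (-0.13). Without single libraries the second-week log2 fold change ranged from -0.021 to 0.076 for Pcna, -0.048 to 0.089 for Cdt1, -0.0065 to 0.22 for Orc1 and -0.077 to 0.13 for Ccne1. With the 50 most abundant genes left out of the totals, the summed shares were 0.343%, 0.302% and 0.167% at days 1, 7 and 14, because the totals are smaller. A replicate block by header number could be fitted between days 14 and 1 only, where it gave 36 lower and 0 higher genes; same-numbered libraries deviated together with r of -0.03, 0.05 and 0.15, so the numbers were not taken to pair the libraries. The cause of these shifts was not tested.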
